A study of Mus musculus with 3 samples.

Results

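The respiratory chain and ATP synthase of the mouse retina were followed through 109 genes among the 33696 of the gene table. Genes were taken by symbol: the mt-Nd, mt-Co, mt-Cyt and mt-Atp genes of the mitochondrial genome, and the nuclear Nduf (a, b, c, s and v), Sdh (a to d), Uqcr, Cox (4 to 8) and Atp5 families, without pseudogene names ending in -ps. Of these, 13 were mitochondrially encoded and 96 nuclear encoded. Complex I held 7 mitochondrial and 39 nuclear members, and its assembly factors (the Ndufaf genes) added 8. Complex II was wholly nuclear with 4 members. Complex III held 1 and 8, complex IV 3 and 19, and complex V, the ATP synthase, 2 and 17. The remaining member, Cox7a2l, joins complexes III and IV into supercomplexes.

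Complexes I to IV pass electrons from NADH and succinate to oxygen. Complexes I, III and IV pump protons across the inner mitochondrial membrane, and complex V uses that gradient to make ATP. Every complex except complex II is built from proteins of both genomes. The mitochondrial genome is transcribed inside the organelle as long polycistronic transcripts, which are cut there and for the most part polyadenylated. Each nuclear gene is instead transcribed and regulated on its own. Photoreceptors are known for a high demand for ATP, and endothelial cells (ECs) are known to rely largely on glycolysis.

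The libraries came from retinas of mice at postnatal day 6, all on a C57BL/6 background, whose cells had been enriched with magnetic beads against CD31 and CD11b. There were 3 droplet libraries, each from mice of 1 genotype pooled before capture: wild type (WT), Tspan12 knockout (Tspan12 KO), and Ctnnb1 loxp/loxp mice carrying Pdgfb-iCre-ER (Ctnnb1 cKO), in which tamoxifen given after birth deletes Ctnnb1 (beta-catenin) in ECs. Whether WT or Tspan12 KO mice received tamoxifen is not given in the sources used here, and the WT animals came from other litters. Tspan12 and Ctnnb1 act in Norrin/beta-catenin signaling, the pathway that drives growth of the retinal vasculature, and the libraries were made to compare ECs with and without it. With 1 library per genotype, a difference between genotypes cannot be told apart from a difference between libraries, no replicate spread exists and no p-value is given. Intervals in parentheses are at 95% and cover counting error only.

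The libraries held 9151 to 14426 barcodes and 37008362 to 137114957 unique molecular identifiers (UMIs, 1 per captured transcript), fewest in Ctnnb1 cKO. After filtering, 8989 WT, 12732 Tspan12 KO and 8451 Ctnnb1 cKO cells were kept, and 21 to 37 barcode sequences were shared between pairs of libraries. Cells were grouped into classes from marker genes without using any of the 109 members, and class names stand for cells like them. ECs numbered 542, 294 and 2709 and microglia 284, 372 and 2130, in the order WT, Tspan12 KO and Ctnnb1 cKO used throughout, and all 8 defining markers were detected in both classes in every library. Cells of unnamed clusters made up 34.7%, 29.0% and 19.2%. The cells were not evenly deep: ECs had medians of 15822, 14580.5 and 3374 UMIs, and microglia 9490.5, 7467 and 3069. Levels are given as CPM, the UMIs of a gene scaled to a common total of 1000000 UMIs for the class in that library. In ECs, Tspan12 was counted at 96.2, 84.2 and 40.2 CPM and Ctnnb1 at 524, 609 and 444 CPM. Reads here come from the 3′ end of transcripts and the deleted parts of both genes are not given, so these levels do not check the genotype labels.

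The summed mitochondrially encoded transcripts were lower, and the summed nuclear encoded ones for the same machinery were not, in both knockout libraries. In ECs the 13 mitochondrial members took 3.29% (3.28 to 3.30%) of all UMIs in WT, 2.18% (2.17 to 2.19%) in Tspan12 KO and only 0.744% (0.739 to 0.749%) in Ctnnb1 cKO. The 96 nuclear members took 2.11%, 2.11% and 2.40%. The mitochondrial share was thus 1.51-fold lower in Tspan12 KO ECs and 4.43-fold lower in Ctnnb1 cKO ECs, log2 ratios to WT of −0.60 (−0.60 to −0.59) and −2.15 (−2.16 to −2.14). For the nuclear share the log2 ratios were 0.00 (−0.01 to 0.01) and 0.19 (0.18 to 0.20). WT ECs carried 1.56 mitochondrial UMIs for each nuclear one, against 1.03 and 0.310 in Tspan12 KO and Ctnnb1 cKO. Both ratios are taken to the same WT library, so the knockout libraries are not independent of each other.

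Microglia, which the Pdgfb driver is not meant to reach, had a like order. Their mitochondrial share was 4.0%, 3.20% and 1.02%, with log2 ratios of −0.32 and −1.97. The nuclear share was 1.41%, 1.60% and 2.19%, with log2 ratios of 0.18 (0.16 to 0.20) and 0.63 (0.61 to 0.65). The number of mitochondrial UMIs per nuclear one was 2.83, 2.0 and 0.466 in microglia.

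The same was seen in retinal neurons. Rods had mitochondrial shares of 3.02%, 2.58% and 1.79%, bipolar cells 2.60%, 2.22% and 1.03%, amacrine cells 2.91%, 1.99% and 0.782%, and retinal progenitors 2.34%, 1.96% and 0.575%. The bipolar class was mixed: 161 WT, 1375 Tspan12 KO and 262 Ctnnb1 cKO cells of it lay in a cluster whose leading genes included the cone genes Pde6h and Opn1sw beside the bipolar genes Grik1 and Grm6. The other bipolar cluster, with 437, 661 and 113 cells, had mitochondrial shares of 1.82%, 1.63% and 0.50%. Of the 6 classes with at least 50 cells in every library, ECs had the lowest summed ratio of Ctnnb1 cKO to WT and rods the highest, −0.76 on the log2 scale, with only 113 rods in Ctnnb1 cKO. The rod clusters were at −1.11 (1570 WT and 83 Ctnnb1 cKO cells) and −0.51 (927 and 30 cells). Outside the rod class, an unnamed cluster of 42 WT and 1453 Ctnnb1 cKO cells matched rods best, at 3 of 8 markers. Its mitochondrial share in Ctnnb1 cKO was 0.748%, so the rod values of that library may leave out rod-like cells. Nuclear shares were higher than in WT in rods, bipolar cells, amacrine cells and progenitors of both knockout libraries. In Ctnnb1 cKO progenitors they reached 3.27% against 2.13%, a log2 ratio of 0.62. In Ctnnb1 cKO rods, however, 49 of the 88 tested nuclear members lay below WT, with a median log2 ratio of −0.15 against −0.10 for all genes. Progenitors too were spread unevenly over clusters, 1 of 90 WT and 484 Ctnnb1 cKO cells and 1 of 329 and 94 cells. Within these the nuclear ratios were 0.23 and 0.47. The mitochondrial ratios within them were −2.52 and −1.90, the first below that of the EC class. Over the classes with at least 50 cells in both libraries, the mitochondrial share was lower in 8 of 8 in Tspan12 KO and in 6 of 6 in Ctnnb1 cKO. Mural cells, of which WT held only 15, had mitochondrial shares of 3.31%, 2.38% and 0.642%. The classes of a library were prepared together and are not replicates.

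**Figure D1:**
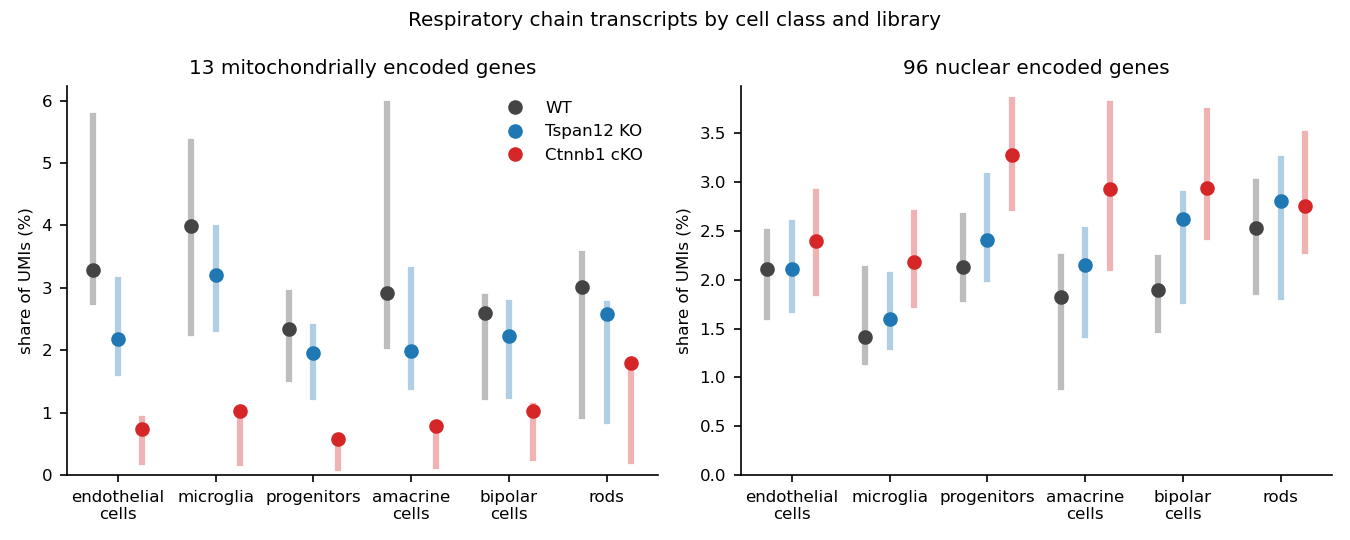
Share of UMIs (%) taken by the 13 mitochondrially encoded (left) and 96 nuclear encoded (right) respiratory chain genes, by cell class on the horizontal axis and with 1 point per library. In ECs the mitochondrial points for WT, Tspan12 KO and Ctnnb1 cKO stand at 3.29%, 2.18% and 0.744%, and the nuclear points at 2.11%, 2.11% and 2.40%.

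Single cells were then examined, because a sum is led by the deepest cells. The median EC had 3.79%, 2.27% and 0.375% mitochondrial UMIs, and the medians of microglia were 3.83%, 3.14% and 0.381%. The interquartile range was 2.78 to 5.76% in WT ECs and 0.203 to 0.895% in Ctnnb1 cKO ECs, so these ranges did not overlap. Cells with under 1% mitochondrial UMIs were 2.77%, 10.9% and 77.4% of ECs. Among microglia they were 12.7%, 4.84% and 74.5%. Nuclear medians of ECs were 2.06%, 2.11% and 2.37%. In the Ctnnb1 cKO library 369 kept cells held no mitochondrial member UMI at all, or 4.37%, against 0.0779% in WT and 0.243% in Tspan12 KO.

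Depth moved with the library, so cells of like depth were compared. ECs with 4000 to 8000 UMIs, an alternative chosen after seeing the data, had mitochondrial shares of 7.04%, 3.47% and 0.673% in 94, 48 and 687 cells. The log2 ratios there were −1.02 and −3.39, the lowest of 6 bins of depth. Over the 6 bins the ratio of Ctnnb1 cKO ECs was below 0 in all 6, up to −1.63, and lower than over all depths in 4. In Tspan12 KO ECs it was below 0 in 5 and lower than over all depths in 4, and it was 0.38 among the 13 WT and 11 Tspan12 KO ECs with 500 to 1000 UMIs. The deepest ECs, from 16000 UMIs upward, were at −0.54 and −1.76. In Ctnnb1 cKO microglia the ratio was −1.95 at 4000 to 8000 UMIs, close to that over all depths, and −0.77 at 8000 to 16000 UMIs. It was −2.86 at 2000 to 4000 UMIs, the bin with 1173 of these cells. Over the 6 bins it was below 0 in all 6, from −3.14 (1 Ctnnb1 cKO cell) to −0.57 (41 cells), so it varied strongly with depth. In Tspan12 KO microglia it was below 0 in 5 of 6 bins. It was 0.40 among the 12 WT and 24 Tspan12 KO microglia with 500 to 1000 UMIs. With each EC thinned to 2000 UMIs the shares were 4.71%, 2.78% and 0.725%, with 21, 31 and 820 shallower ECs left out. In microglia with 4000 to 8000 UMIs, the nuclear share of Tspan12 KO lay below WT, at 1.54% against 1.73%, a log2 ratio of −0.17 in place of 0.18.

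The libraries also filled different clusters of a class. Of the 2709 Ctnnb1 cKO ECs, 1832 lay in a cluster with 26 WT ECs, and 1837 of the 2130 Ctnnb1 cKO microglia lay in a cluster with 9 WT microglia. Within the cluster that held 515 WT, 216 Tspan12 KO and 327 Ctnnb1 cKO ECs, the mitochondrial share was 3.29%, 2.16% and 0.807%. Within the microglial cluster of 103, 75 and 59 cells it was 4.99%, 4.28% and 2.33%, a log2 ratio of −1.10 in Ctnnb1 cKO in place of −1.97. The cluster that held most WT microglia, with 164, 259 and 27 cells, had 3.91%, 3.21% and 2.88%, a log2 ratio of −0.44 in Ctnnb1 cKO. The microglial ratio in Ctnnb1 cKO was thus smaller within these clusters than over the class, while that of ECs stayed near it, at −2.03. These within-cluster values were chosen after seeing the data.

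Measures of RNA quality moved with the libraries as well. Malat1, a nuclear noncoding RNA, took 0.454%, 0.320% and 1.85% of EC UMIs and 0.864%, 0.682% and 2.21% of microglial UMIs. Cytosolic ribosomal protein transcripts took 17.3%, 18.9% and 25.3% in ECs and 9.54%, 10.2% and 16.3% in microglia. Haemoglobin transcripts, from red blood cells, took 0.0158%, 0.304% and 0.0246% of EC UMIs. Before filtering, 188 WT, 32 Tspan12 KO and 10 Ctnnb1 cKO barcodes had exceeded the limit of 15% mitochondrial UMIs. The part of these measures in the mitochondrial difference was not tested.

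**Figure D2:**
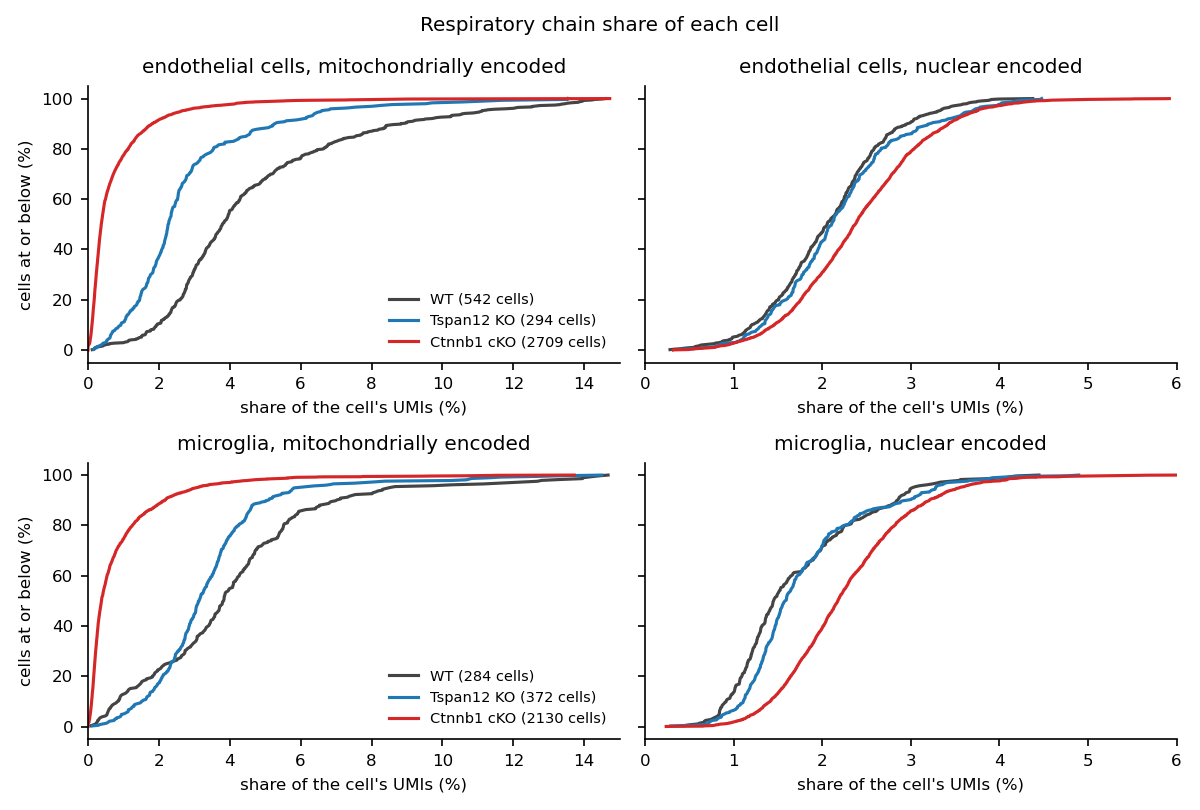
Cumulative percentage of cells (vertical axis) at or below a given share of their own UMIs (horizontal axis, %) for mitochondrial and nuclear members in ECs and microglia, with 1 line per library. In ECs the mitochondrial lines lie apart at their medians of 3.79%, 2.27% and 0.375%. In microglia the WT and Tspan12 KO mitochondrial lines cross, with 12.7% and 4.84% of cells under 1% but medians of 3.83% and 3.14%. The nuclear lines lie closer together in ECs than in microglia. Their medians are 2.06%, 2.11% and 2.37% in ECs and 1.45%, 1.59% and 2.18% in microglia.

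The mitochondrial genes were compared one by one, complex I first. Its mt-Nd genes encode the membrane core of the NADH dehydrogenase. mt-Nd1 was counted at 2121 CPM in WT ECs and 2040 and 449 CPM in those of the knockout libraries, log2 ratios of −0.06 (−0.08 to −0.03) and −2.24 (−2.28 to −2.20). mt-Nd2 was at 966, 431 and 131 CPM, with log2 ratios of −1.16 and −2.88. The level of mt-Nd1 was thus close to WT in Tspan12 KO ECs, while mt-Nd2, its neighbour on the same strand, had the lowest ratio of the 13 in that library.

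Among the other complex I genes, mt-Nd3 was at 405, 371 and 35.6 CPM in ECs, and its log2 ratio in Ctnnb1 cKO, −3.51 (−3.65 to −3.37), was the lowest of all members. mt-Nd4 was at 1852, 1058 and 506 CPM, with ratios of −0.81 and −1.87, and mt-Nd5 at 284, 145 and 72.1 CPM, with ratios of −0.97 and −1.98. mt-Nd6, the only member on the opposite strand of the mitochondrial genome, had 315, 80 and 25 UMIs and ratios of −0.67 (−1.04 to −0.31) and −3.33 (−3.98 to −2.74). mt-Nd4l stood apart, at 80.9, 40.5 and 69.4 CPM: its ratio was −1.0 (−1.19 to −0.81) in Tspan12 KO but −0.22 (−0.35 to −0.10) in Ctnnb1 cKO. The mt-Nd4l and mt-Nd4 reading frames overlap on 1 transcript, as do those of mt-Atp8 and mt-Atp6, so how reads were divided within each pair is uncertain.

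Complex III has 1 mitochondrial gene, mt-Cytb for cytochrome b, at 3805, 2207 and 594 CPM in ECs. Its log2 ratios were −0.79 and −2.68. The 3 complex IV genes encode the catalytic core of cytochrome c oxidase and included the smallest differences of the abundant transcripts in Ctnnb1 cKO. mt-Co1 was at 3770, 2273 and 1752 CPM, with ratios of −0.73 and −1.11 (−1.13 to −1.08). mt-Co2 was at 5169, 3336 and 1811 CPM, with ratios of −0.63 and −1.51, and mt-Co3 at 6427, 4483 and 1031 CPM, with ratios of −0.52 and −2.64. Transcripts of the same complex therefore differed among themselves in Ctnnb1 cKO, with intervals that did not overlap.

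In complex V, mt-Atp6, a part of the proton channel, was at 8012, 5386 and 985 CPM in ECs. Its ratios were −0.57 (−0.59 to −0.56) and −3.02 (−3.05 to −3.0), an 8.14-fold lower level of the complex V pair in Ctnnb1 cKO. mt-Atp8 was at 19.3, 14.1 and 2.32 CPM. The makeup of the mitochondrial UMIs accordingly differed between libraries. mt-Co1 and mt-Co2 were 11.4% and 15.7% of them in WT ECs, 10.4% and 15.3% in Tspan12 KO ECs, and 23.5% and 24.3% in Ctnnb1 cKO ECs. mt-Atp6 made up 24.3%, 24.7% and 13.2%.

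In ECs, 8 of the 13 mitochondrial genes were lower by at least 1.5-fold in Tspan12 KO, where 10.5% of all genes tested were, and 12 of 13 in Ctnnb1 cKO, where 26.3% were. None was higher by that fold in either. In microglia, 4 of 13 were lower in Tspan12 KO, against 5.54% of genes, and 12 of 13 in Ctnnb1 cKO, against 17.2%. mt-Nd1 was at a log2 ratio of 0.11 in Tspan12 KO microglia and −1.92 in Ctnnb1 cKO, mt-Nd3 at 0.18 and −3.21, mt-Co1 at −0.55 and −1.09, and mt-Atp6 at −0.30 and −2.72. mt-Nd4l was again close to the WT level in Ctnnb1 cKO microglia, with 120, 67.3 and 121 CPM and a log2 ratio of 0.01 (−0.18 to 0.20).

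Across the 6 classes with at least 50 cells in every library, mt-Nd2 and mt-Nd4l were lower by at least 1.5-fold in all 6 in Tspan12 KO, with log2 ratios of −1.16 to −0.64 and −1.0 to −0.78. Of 7534 genes tested in all 6, 0.212% met that rule. Of the 13, 7 did so in Ctnnb1 cKO, namely mt-Nd2, mt-Nd3, mt-Nd6, mt-Cytb, mt-Co3, mt-Atp6 and mt-Atp8, against 3.4% of genes. For mt-Nd6 and mt-Atp8 this rests on few UMIs in Ctnnb1 cKO and is uncertain. mt-Nd6 had 3 in rods, 2 in progenitors and 0 in amacrine cells, where a limit of 3 counts was used. mt-Atp8 had 3 in rods and 3 in progenitors. mt-Nd4l had no common direction in Ctnnb1 cKO, from −1.35 in progenitors to 1.53 (1.11 to 1.93, 55 UMIs) in rods. mt-Co1 was at −1.11 in ECs and at 0.02 in rods of the same library.

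**Figure D3:**
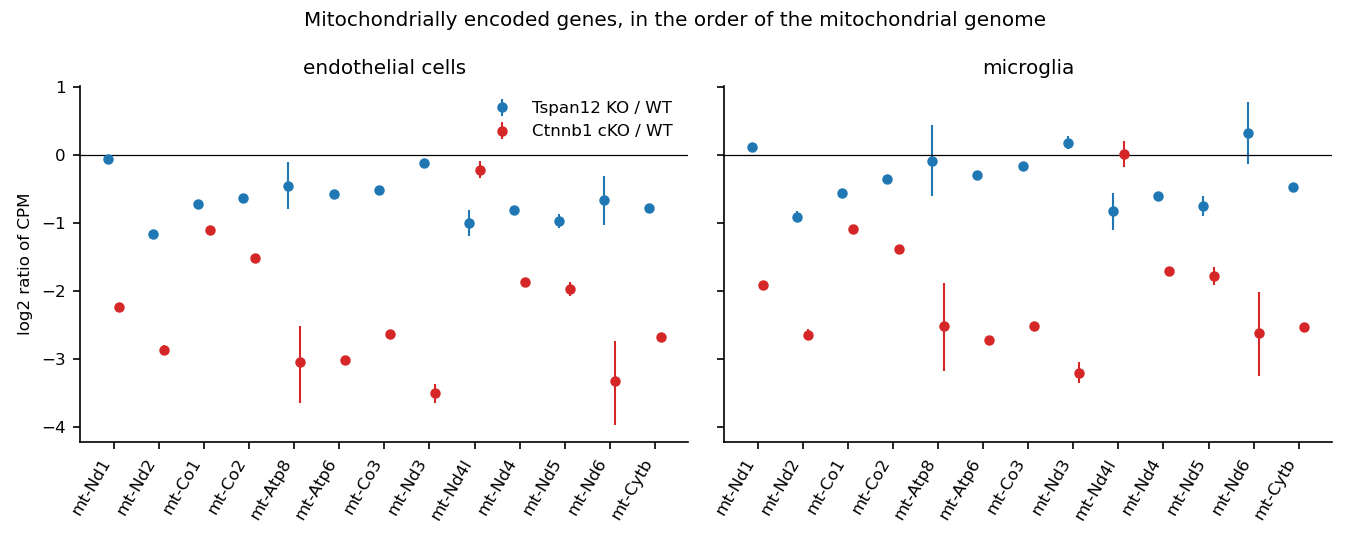
Log2 ratio of CPM to WT (vertical axis) of the 13 mitochondrially encoded genes, in their order on the mitochondrial genome, in ECs and microglia, with points for Tspan12 KO and Ctnnb1 cKO and bars for the 95% counting interval. In Ctnnb1 cKO ECs the points run from −3.51 for mt-Nd3 to −0.22 for mt-Nd4l, with mt-Co1 at −1.11.

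The nuclear members were treated in the same way. In ECs 90 of the 96 had at least 50 UMIs over WT and each knockout library. The other 6, Cox6a2, Cox7a1, Cox7b2, Cox8b, Cox8c and Ndufb11b, are given with the isoforms. In Tspan12 KO ECs, 3 nuclear members were higher by at least 1.5-fold and 3 lower, against 8.61% of all genes higher and 10.5% lower. The median log2 ratio of the tested nuclear members was −0.02, and that of all genes 0.01. In Ctnnb1 cKO ECs, 22 were higher and 15 lower, against 16.7% and 26.3% of all genes, and the medians were −0.05 and −0.12. TMM scaling (trimmed mean of M values) raised every gene of that comparison by 0.12 and turned 22 and 15 into 27 and 10.

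By complex, nuclear sums in Ctnnb1 cKO ECs were higher than in WT for complexes III (log2 ratio 0.36), IV (0.43) and V (0.13) and lower for complex II (−0.37, −0.43 to −0.31). The complex I sum was at 0.03, which TMM scaling moved to 0.15 and scaling to nuclear encoded UMIs turned to −0.01. In Tspan12 KO ECs the sums were at −0.05 for complex I, −0.36 for complex II, 0.15 for complex III, 0.14 for complex IV and −0.08 for complex V. Complex II, the only complex without a mitochondrial gene, was thus the one with the lowest nuclear sum in both knockout libraries.

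The complex II genes were read singly. Sdhd, a membrane anchor of succinate dehydrogenase, was at 95.3 CPM in WT ECs and at 36.5 and 56.5 CPM in the knockout libraries, with log2 ratios of −1.38 (−1.59 to −1.19) and −0.76 (−0.88 to −0.63). Sdhb, the iron-sulfur subunit and the complex II gene with the highest CPM in WT ECs, was at 119, 90.6 and 106 CPM. Sdha, the flavoprotein, was at 82.0, 88.3 and 63.1 CPM, and Sdhc, the other anchor, at 73.3, 72.1 and 60.3 CPM. Of these 4, only Sdhd passed 1.5-fold. It was lower in both libraries, where 10.5% and 26.3% of all genes were. In Tspan12 KO it was lower by at least 1.5-fold in all 6 classes, against 0.212% of genes, from −1.38 in ECs to −0.86 in the mixed bipolar class.

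In complex I, 1 of the 38 tested nuclear members was higher and 1 lower in Tspan12 KO ECs, against 8.61% and 10.5% of all genes. In Ctnnb1 cKO ECs 8 of the 38 were higher and 8 lower, near the 16.7% and 26.3% of all genes. Ndufb1, an accessory subunit of the membrane arm, was at 95.4, 106 and 346 CPM, with log2 ratios of 0.16 and 1.86 (1.77 to 1.94). Ndufb6, of the same arm, was at 121, 108 and 64.2 CPM, with ratios of −0.16 and −0.91. Ndufa9, an accessory subunit, was at 95.8, 58.4 and 56.2 CPM and below WT by at least 1.5-fold in both. Members with opposite ratios therefore belonged to 1 arm of 1 complex. Ndufb5, the complex I gene with the highest CPM in WT ECs, was at 352, 317 and 234 CPM. Ndufb4b, at 2.29, 4.14 and 6.5 CPM from 37, 27 and 84 UMIs, is a near copy of Ndufb4, so its reads may be shared with that gene. Of the 8 assembly factors, Ndufaf1 alone passed 1.5-fold, at 8.84, 8.89 and 5.65 CPM. It was lower in Ctnnb1 cKO ECs, where 26.3% of all genes were.

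Complex III members included Uqcr11, a small subunit, at 182, 338 and 329 CPM in ECs, with log2 ratios of 0.90 (0.82 to 0.98) and 0.86 (0.79 to 0.93). It was the member most above WT in Tspan12 KO, where it was higher by at least 1.5-fold in all 6 classes, up to 1.36 in the mixed bipolar class, against 0.358% of genes. Uqcr10, another small subunit, was at 252, 334 and 547 CPM. Uqcrb was at 291, 290 and 136 CPM, level with WT in Tspan12 KO at −0.00 (−0.08 to 0.07) and lower in Ctnnb1 cKO at −1.10 (−1.18 to −1.02). Uqcrh, the hinge protein and highest of the complex, was at 558, 518 and 737 CPM.

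Of the 14 tested complex IV genes, 6 were higher and 2 lower in Ctnnb1 cKO ECs, against 16.7% and 26.3% of all genes. Cox6c was at 411, 554 and 987 CPM and Cox8a at 500, 553 and 1057 CPM, log2 ratios of 1.26 and 1.08 in Ctnnb1 cKO. Cox5a was at 504, 594 and 264 CPM, with ratios of 0.24 and −0.94 (−0.99 to −0.88), and Cox5b, which lies beside it in the enzyme, at 223, 245 and 427 CPM, with ratios of 0.13 and 0.94. Cox6a1 was at 181, 108 and 258 CPM, lower in Tspan12 KO (−0.74) and at 0.51 in Ctnnb1 cKO. Ndufa4, now counted as a complex IV subunit despite its name, was at 782, 1085 and 529 CPM, ratios of 0.47 and −0.56, both short of 1.5-fold. In Tspan12 KO it was above WT in all 6 classes, up to 1.11 in the mixed bipolar class. Cox7a2l was at 455, 386 and 407 CPM.

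Complex V held the member most above WT and the one most below WT in Ctnnb1 cKO ECs. Atp5k, subunit e of the membrane part, was at 94.1, 110 and 389 CPM, with log2 ratios of 0.22 and 2.05 (1.96 to 2.13). Atp5pb, subunit b of the peripheral stalk, was at 453, 309 and 188 CPM, with ratios of −0.55 and −1.27 (−1.34 to −1.20). In addition, Atp5md, a small membrane subunit, was at 133, 166 and 349 CPM, a ratio of 1.40 in Ctnnb1 cKO. Atp5e, the epsilon subunit, was at 373, 543 and 858 CPM, with ratios of 0.54 and 1.20, and Atp5mpl, a small proteolipid, at 189, 273 and 296 CPM. Atp5o, of the peripheral stalk, was at 362, 250 and 275 CPM, and Atp5h, the complex V gene with the highest CPM in WT ECs, at 693, 511 and 555 CPM. The genes of the membrane ring were at 298, 268 and 390 CPM for Atp5g1, 657, 475 and 663 CPM for Atp5g2 and 265, 241 and 209 CPM for Atp5g3, none past 1.5-fold.

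In microglia 85 nuclear members were tested in Tspan12 KO, with 6 higher and 2 lower, against 10.2% and 5.54% of all genes. In Ctnnb1 cKO microglia 88 were tested, with 35 higher and 4 lower, against 21% and 17.2% of all genes. The median log2 ratio in Ctnnb1 cKO was 0.33 over the tested nuclear members and 0.06 over all genes. The nuclear sums were at 0.46 for complex I, 0.09 (−0.02 to 0.21) for complex II, 0.78 for complex III, 0.87 for complex IV and 0.63 for complex V. Ndufb1 was at 73.5, 91.9 and 347 CPM in microglia, Atp5k at 69.7, 70.9 and 322 CPM and Uqcr10 at 156, 239 and 510 CPM. The 4 lower members were Ndufa9, Uqcrb, Ndufa4l2 and Atp5pb, which were lower in Ctnnb1 cKO ECs too.

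Over the 6 classes, 15 of the 87 nuclear members tested in each were higher by at least 1.5-fold in all of them in Ctnnb1 cKO, against 2.5% of genes. They were Ndufa2, Ndufb1, Ndufb4 and Ndufc1 of complex I, Uqcr10 and Uqcr11 of complex III, Cox5b, Cox6c, Cox7a2, Cox7c and Cox8a of complex IV, and Atp5e, Atp5k, Atp5md and Atp5mpl of complex V. Atp5k ranged from 2.05 in ECs to 2.63 in amacrine cells, and Ndufb1 from 1.69 in rods to 2.28 in progenitors. Atp5pb and Ndufa9 were lower in all 6, from −1.27 to −0.65 and from −1.96 to −0.60, and these 2 of 87 were fewer than the 3.4% of all genes. Without the mixed bipolar class, a setting added after seeing the data, the same 15 and 2 members met these rules in the remaining 5 classes, against 2.76% and 3.93% of genes. The higher members were thus so in neurons as well as in ECs, the class that the Cre driver targets.

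**Figure D4:**
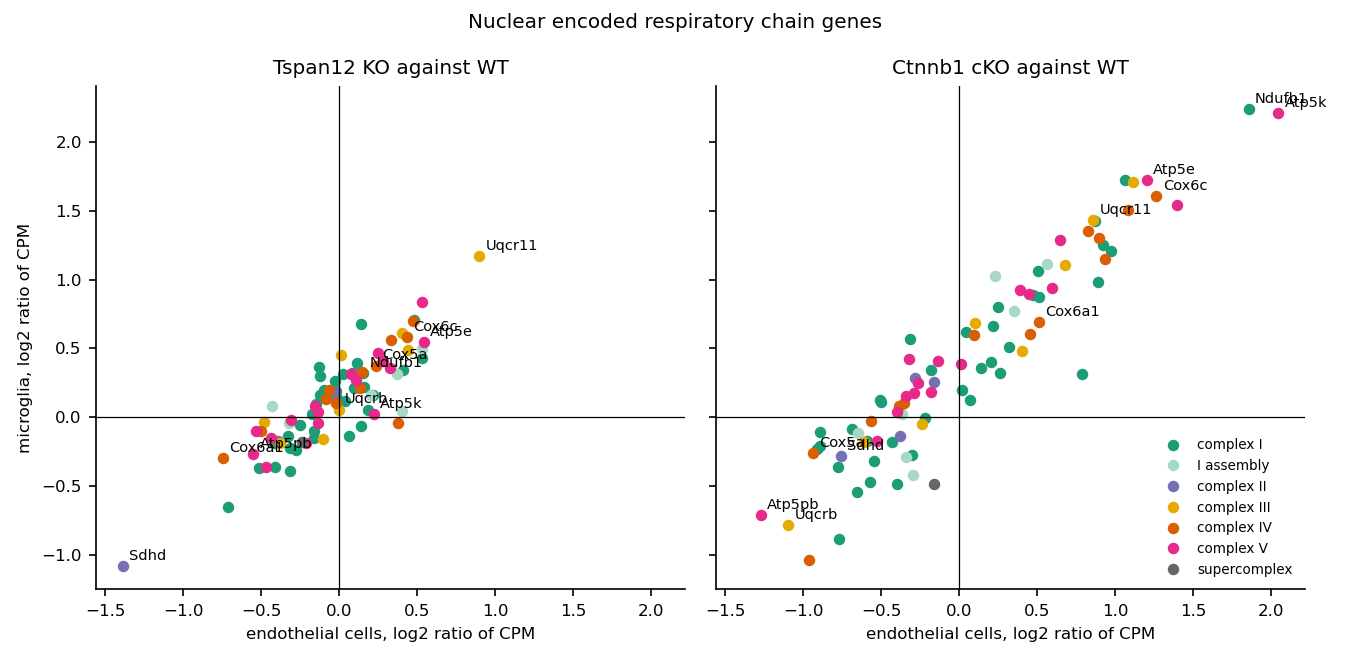
Log2 ratio of CPM to WT of nuclear encoded members in ECs (horizontal axis) and microglia (vertical axis), with 1 point per gene coloured by complex, for Tspan12 KO (left, 85 genes) and Ctnnb1 cKO (right, 87 genes). In Ctnnb1 cKO, Atp5k (2.05 in ECs) and Ndufb1 (1.86) lie farthest to the right and Atp5pb (−1.27) farthest to the left.

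Short transcripts made up most of the nuclear members, so they were set against genes of like length. In Ctnnb1 cKO ECs the 54 nuclear members with mature transcripts under 700 bases had a median log2 ratio of 0.38, and the 1936 genes of that length −0.08. The 32 members of 700 to 1500 bases had a median of −0.35, against −0.14 for genes of that length. In Ctnnb1 cKO microglia the medians were 0.67 and −0.08 for the members of these lengths, against 0.17 and 0.03. In Tspan12 KO ECs they were 0.12 and −0.16, against 0.01 and −0.01. The 3 members of 1500 bases or more were at medians of 0.25, 0.80 and 0.02 in the same order, so members under 700 bases were above those of 700 to 1500 bases in each of these comparisons, and the longest members were not the lowest.

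Promoters of members with the highest and lowest log2 ratios in Ctnnb1 cKO ECs are shown to set their sequence beside their expression. They are the 3 highest and the 2 lowest of those with an entry in the RefSeq promoter table (build GRCm38.p6), each as the 250 bases before the transcription start, read 5′ to 3′ on the strand of the gene. Atp5k lies at chr5:108434400-108434649 (minus strand), Cox6b2 at chr7:4753095-4753344 (minus), Ndufb1 at chr12:101975739-101975988 (minus), Atp5pb at chr3:105959264-105959513 (minus) and Cox5a at chr9:57520982-57521231 (plus). Capitals mark matches to the motif of NRF1, a transcription factor known to regulate respiratory chain genes.
Atp5k: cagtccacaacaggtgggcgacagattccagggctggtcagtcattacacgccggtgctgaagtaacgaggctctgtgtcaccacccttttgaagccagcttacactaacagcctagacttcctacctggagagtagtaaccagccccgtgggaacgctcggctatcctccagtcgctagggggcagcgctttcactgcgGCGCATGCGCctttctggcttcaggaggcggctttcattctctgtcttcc
Cox6b2: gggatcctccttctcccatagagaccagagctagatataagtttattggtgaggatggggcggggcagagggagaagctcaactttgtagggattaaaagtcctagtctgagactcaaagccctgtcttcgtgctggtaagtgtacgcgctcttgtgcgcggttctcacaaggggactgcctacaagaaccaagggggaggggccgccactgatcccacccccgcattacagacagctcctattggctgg
Ndufb1: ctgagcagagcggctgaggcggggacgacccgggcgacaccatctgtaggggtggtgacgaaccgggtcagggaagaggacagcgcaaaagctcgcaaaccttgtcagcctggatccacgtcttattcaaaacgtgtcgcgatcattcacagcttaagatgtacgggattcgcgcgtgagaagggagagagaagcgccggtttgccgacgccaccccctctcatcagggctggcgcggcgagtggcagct
Atp5pb: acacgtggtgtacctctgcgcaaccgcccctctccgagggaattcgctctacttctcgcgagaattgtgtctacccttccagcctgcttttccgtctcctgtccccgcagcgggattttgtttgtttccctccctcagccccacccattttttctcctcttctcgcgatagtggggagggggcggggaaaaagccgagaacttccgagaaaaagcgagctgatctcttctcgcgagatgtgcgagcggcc
Cox5a: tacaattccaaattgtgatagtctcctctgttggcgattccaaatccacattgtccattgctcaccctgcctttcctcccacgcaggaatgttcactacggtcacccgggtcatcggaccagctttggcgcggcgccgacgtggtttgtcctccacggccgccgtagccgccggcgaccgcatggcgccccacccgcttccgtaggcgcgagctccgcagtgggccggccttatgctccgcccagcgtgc

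Motifs were counted in the 300 bases from 250 before to 50 after the start, on both strands, for the 78 of 96 nuclear members with an entry. The NRF1 motif GCGCANGCG was held by 22 members, or 28.2%, against 7.03% of all 27025 promoters. The YY1 motif AANATGGCG was held by 11 members, or 14.1%, against 2.76%, and the ETS motif CCGGAAGT, which GABP binds, by 5 members, or 6.41%, against 4.31%. The Atp5k promoter above held overlapping matches to the NRF1 motif near its start, and the stretches of Cox6b2, Ndufb1, Atp5pb and Cox5a held none of the 3 motifs. Of the members higher by 1.5-fold in Ctnnb1 cKO ECs, 5 of 18 with an entry held the NRF1 motif, and of those lower, 2 of 12. In the same order the YY1 motif was held by 1 of 18 and 2 of 12, and the ETS motif by 2 of 18 and 0 of 12.

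Several subunits have alternative isoforms that mark cell classes. Ndufa4l2, a paralogue of Ndufa4 known to be induced by hypoxia, was highest in progenitors, at 515, 567 and 339 CPM, and in mural cells, at 405, 386 and 311 CPM. It was at 116, 212 and 110 CPM in bipolar cells, 49.4, 141 and 80.7 CPM in amacrine cells and 45.1, 89.6 and 46.6 CPM in rods. ECs had 13.1, 17.0 and 6.73 CPM and microglia 17.0, 16.5 and 8.31 CPM. Over the 6 classes its log2 range of class medians, 4.84, was the widest of the nuclear members. Amacrine and rod levels overlapped between libraries, and so did those of ECs and microglia.

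Cox4i2, the isoform of subunit 4 known from lung and hypoxic cells, had the second widest range, 3.80. It was at 121, 107 and 149 CPM in progenitors and 110, 114 and 145 CPM in mural cells, but at 5.13, 3.99 and 4.02 CPM in ECs and 8.71, 8.82 and 9.38 CPM in microglia. The common isoform Cox4i1 was at 899, 887 and 1235 CPM in ECs. Cox6b2, the testis isoform of subunit 6b, was at 50.5, 48.5 and 21.7 CPM in progenitors and 2.72, 4.75 and 10.8 CPM in ECs. Its log2 ratio in Ctnnb1 cKO was thus 1.99 (1.49 to 2.52) in ECs, from 44 and 140 UMIs, and −1.22 in progenitors. Cox6b1, its common counterpart, was at 442, 415 and 338 CPM in ECs.

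**Figure D5:**
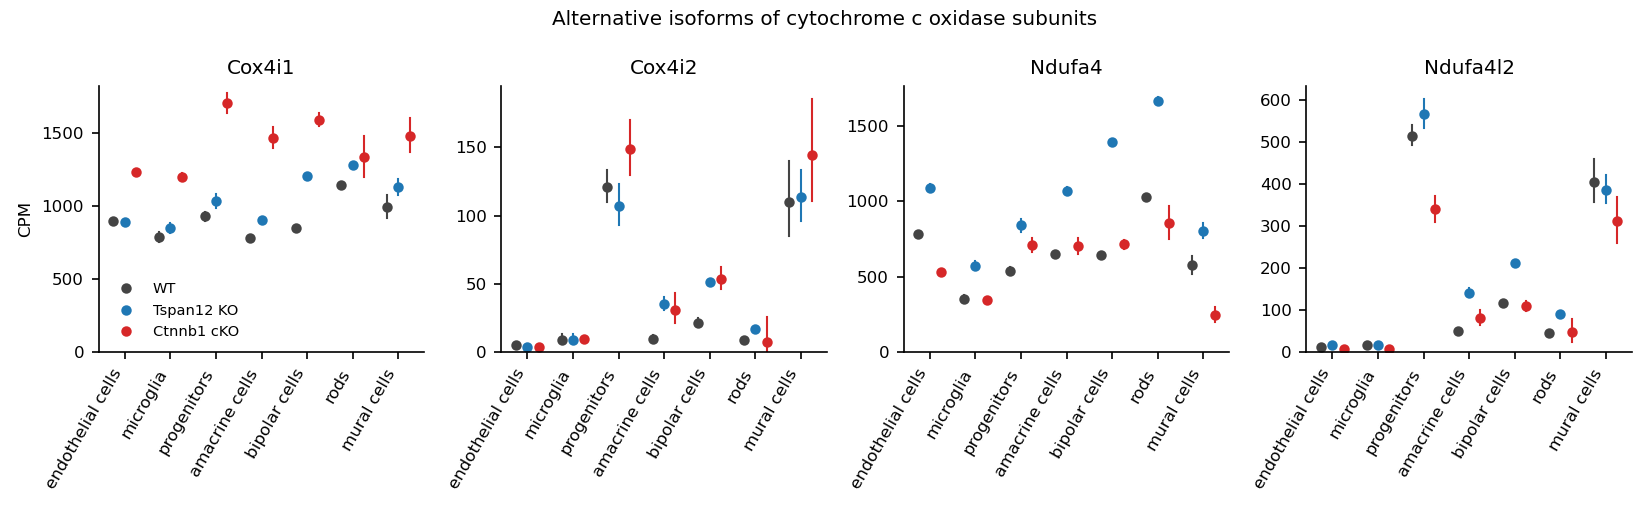
CPM of alternative complex IV isoforms (vertical axis) by cell class (horizontal axis), with 1 point per library and bars for the 95% counting interval. Ndufa4l2 and Cox4i2 are highest in progenitors (515, 567 and 339 CPM, and 121, 107 and 149 CPM) and mural cells, and low in ECs and microglia.

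Other members also differed between classes. Ndufv3, an accessory subunit of complex I, was at 307, 404 and 455 CPM in rods and 90.4, 131 and 177 CPM in ECs. Also among the widest ranges were those of Ndufaf5, Ndufaf4, Ndufa4, Ndufa5 and Ndufb6, with log2 ranges of 1.58 to 1.39, all lowest in microglia. Of the muscle and testis isoforms, Cox8b, Cox8c, Cox7a1 and Cox7b2 were near the limit of detection in ECs and microglia. Cox8b and Cox8c had 0 UMIs in ECs and microglia of all libraries, which allows up to 0.185, 0.460 and 0.232 CPM in ECs, and so did Ndufb11b. Cox7a1 had 5, 6 and 11 UMIs in ECs and 1, 5 and 15 in microglia, and Cox7b2 had 5, 0 and 0 in ECs and 0 in microglia. Cox6a2, the muscle isoform of subunit 6a, had 1, 0 and 4 UMIs in ECs and 8, 7 and 62 in microglia, where its level was 3.03, 2.57 and 8.31 CPM.

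Other genes of mitochondrial function were compared by fixed lists. Of 18 tested genes for mitochondrial DNA and RNA handling, 2 were higher and 5 lower in Ctnnb1 cKO ECs, where 16.7% and 26.3% of all genes were, so the share lower was near that of all genes. The median log2 ratio was −0.10 against −0.12 for all genes. In Tspan12 KO ECs 2 of 17 were higher and 1 lower, against 8.61% and 10.5%. Polg2, the accessory subunit of the mitochondrial DNA polymerase, was at 34.2, 9.66 and 9.90 CPM, log2 ratios of −1.82 and −1.79. Tfam, which packages mitochondrial DNA and starts its transcription, was at 28.2, 28.4 and 28.7 CPM, and the polymerase Polrmt at 7.11, 7.82 and 9.82 CPM. In microglia 1 of 12 was higher and 1 lower in Tspan12 KO, against 10.2% and 5.54% of genes, and 4 of 16 higher and 3 lower in Ctnnb1 cKO, against 21% and 17.2%. Microglial Polg2 was at 71.6, 39.7 and 22.1 CPM. Polg2 was thus lower in both classes. The other lower genes of the list in Ctnnb1 cKO ECs were Mterf3 (−1.21), Pnpt1 (−1.04), Fastkd2 (−1.38) and Fastkd5 (−0.89). The higher ones were Twnk (1.65) and Mterf1a (1.28). The part of these genes in the mitochondrial difference was not tested.

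Carriers and import proteins had the lowest median of these lists in Ctnnb1 cKO ECs, −0.59 against −0.12 for all genes. There 7 of 14 were lower by at least 1.5-fold and 0 higher, against 26.3% and 16.7% of all genes. In Tspan12 KO ECs their median was −0.11 and 1 of 14 was lower, against 10.5%, and the citric acid cycle list had the lower median, −0.24. Slc25a5, an ADP/ATP carrier, was at 441, 318 and 217 CPM. In microglia the same list had 2 of 14 higher and 0 lower in Ctnnb1 cKO, against 21% and 17.2% of all genes. In Tspan12 KO microglia it had 0 in either direction, against 10.2% and 5.54%. The citric acid cycle list had 5 of 13 lower and 0 higher in Ctnnb1 cKO ECs (Idh3a, Dld, Suclg1, Sucla2 and Fh1), against the same 26.3% and 16.7%. It had 0 in either direction in Tspan12 KO ECs, against 8.61% of all genes higher and 10.5% lower. In Ctnnb1 cKO microglia 2 of 13 were higher and 2 lower, against 21% and 17.2% of all genes. In Tspan12 KO microglia 1 of 13 was higher and 0 lower, against 10.2% and 5.54%.

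Of 12 complex IV assembly genes, 1 was higher and 2 lower in Ctnnb1 cKO ECs, both below the shares of all genes. In Tspan12 KO ECs 0 passed in either direction, against 8.61% and 10.5%. The higher one in Ctnnb1 cKO ECs was Cox17, the copper chaperone, at 48.2, 71.8 and 186 CPM (log2 ratio 1.95). Cox17 was also the only one of 11 past 1.5-fold in Ctnnb1 cKO microglia, at 54.9, 80.5 and 271 CPM. There 21% of all genes were higher and 17.2% lower. In Tspan12 KO microglia 0 of 10 passed 1.5-fold, where 10.2% of all genes were higher and 5.54% lower. Among 9 tested regulators, 2 were higher and 2 lower in Ctnnb1 cKO ECs, near the 16.7% and 26.3% of all genes. In Tspan12 KO ECs 1 was higher and 0 lower, against 8.61% and 10.5%. In Ctnnb1 cKO microglia 2 of 9 were higher and 1 lower, against 21% and 17.2%. Nrf1 was at 61.7, 69.0 and 56.5 CPM in ECs, and Gabpb1, a GABP subunit, at 54.9, 47.5 and 32.6 CPM. In Tspan12 KO microglia 1 of 7 regulators was lower, Gabpb1 at 98.1 CPM in WT and 49.6 CPM in Tspan12 KO.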

How the data were processed

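The deposited matrices hold raw UMI counts per gene and barcode for 1 library each of WT, Tspan12 KO and Ctnnb1 cKO retina. Per the file headers, the authors used Cell Ranger version 8.0.1. The sources used here name different versions and builds, so no coordinates come from the files. Barcodes needed 250 genes, 500 UMIs and no more than 15% mitochondrial UMIs. The median barcode held 2790 to 4974 UMIs by library. The highest Scrublet scores were removed as doublets at 0.8% for every 1000 cells (760, 1656 and 665 cells), since the automatic threshold marked 0, 0 and 311.

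Log counts per 10000, 2000 variable genes without any member, 30 principal components and 20 neighbours gave 29 Leiden clusters at resolution 1. They were named from markers of 19 classes: 3 or more markers at a log2 fold of 1 in 10% of cells, and a mean marker log2 fold of 0.5. Counts were summed per class and library. Log2 ratios of CPM were computed for genes with 50 UMIs or more over both libraries, and differences past 1.5-fold were counted beside those of all genes. Intervals are exact Poisson for CPM, Clopper-Pearson for shares and conditional binomial for ratios (tested on simulated data), and a count of 0 was given a limit of 3 counts. Ranges between classes used log2(CPM + 5).

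Named were all mitochondrial members, complex II, isoform families, the highest CPM of each complex in WT ECs, the 5 highest and 5 lowest nuclear log2 ratios in ECs of each knockout library, and the 10 widest ranges between classes. A gene these criteria name is not reported here. Others named were chosen after their values were seen. The members and lists were chosen with earlier results of these data known. Alternatives covered the mitochondrial filter, doublets, a marker gate in place of clusters, TMM, nuclear encoded totals, thinning to 2000 UMIs, means over cells, minimums of 200 UMIs and of 1 UMI in each library, a fold of 2, and members allowed in the clustering, and, added after seeing the data, bins of depth, single clusters and leaving out bipolar cells. Transcript lengths came from a GENCODE annotation that may not be the authors' own, and promoters from RefSeq. Python version 3.11.15, scanpy version 1.11.5, leidenalg version 0.10.2, scipy version 1.17.1, R version 4.3.3 and edgeR version 4.0.16 (TMM only) were used.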

Additional observations from a re-analysis of the deposited data

Results flagged for a closer look

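Log2 ratios of Ctnnb1 cKO to WT that went opposite ways in different classes are listed first, and the difference between classes was not tested. Cox6b2 was at 1.99 in ECs and −1.22 in progenitors. Ndufa4l2 was at 0.71 in amacrine cells and −1.04 in microglia. mt-Nd4l was at 1.53 in rods and −1.35 in progenitors.

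Some signals lay outside the comparisons. Cox5b-ps, a pseudogene name left out of the members, was counted at 6.31 CPM over all Tspan12 KO cells and 4.87 CPM over all WT cells. An unnamed cluster of 42, 212 and 1453 cells, with a median of 1231 UMIs, had nuclear member shares of 1.57% in WT, 2.84% in Tspan12 KO and 3.84% in cells of the Ctnnb1 cKO library. Its leading genes included Hbb-bs, Hba-a1, Ndufb1 and Atp5k, and haemoglobin transcripts took 49.6%, 19.1% and 0.0159% of its UMIs. Barcodes over the mitochondrial limit had a nuclear member share of 2.92% in Ctnnb1 cKO (10 barcodes) and 1.43% in WT (188 barcodes).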

How the results depend on the processing

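No paired analysis was possible because each genotype has 1 library. The mitochondrial sums stayed below WT in both classes and libraries under all 10 alternatives, from −1.02 to −0.57 in Tspan12 KO ECs, −3.39 to −2.02 in Ctnnb1 cKO ECs, −0.61 to −0.22 in Tspan12 KO microglia and −2.26 to −1.10 in Ctnnb1 cKO microglia. Of 132 alternative values, 66 moved by less than the counting interval (or 1.5 times for counts) and 65 moved further, and 1 value whose interval had lain on one side of 0 took the other sign. The nuclear sum of Tspan12 KO ECs, whose interval held 0, also lay below 0 under 2 alternatives, TMM (−0.0054) and nuclear encoded totals (−0.013). The causes were not tested. Values follow as log2 ratios for ECs (mitochondrial and nuclear in Tspan12 KO, then in Ctnnb1 cKO) and microglia, naming only those that moved. Without the mitochondrial filter the mitochondrial sums were −0.63 and −2.18 in ECs and −1.99 in Ctnnb1 cKO microglia. Without doublet removal ECs were at 0.040 (nuclear, Tspan12 KO), −2.13 and 0.23, and nuclear microglial sums at 0.23 and 0.66. With a marker gate ECs were at −0.57, 0.025 and −2.17 (mitochondrial, Ctnnb1 cKO), and microglia at −0.35, 0.13, −1.79 and 0.56. TMM gave −2.02 and 0.31 in Ctnnb1 cKO ECs, and −0.40, 0.10, −2.01 and 0.59 in microglia. Nuclear encoded totals gave −0.61, −0.013, −2.18 and 0.15 in ECs, and −2.01 and 0.58 in Ctnnb1 cKO microglia. Within 1 cluster ECs were at −0.61, 0.075, −2.03 and 0.34, and microglia at −0.22, −1.10 and 0.49. At 4000 to 8000 UMIs ECs were at −1.02, 0.26, −3.39 and 0.45, and microglia at −0.61, −0.17 (the value that took the other sign), −1.95 and 0.26. Means over cells were −0.74, 0.078, −2.60 and 0.22 in ECs and −0.27, 0.075, −2.25 and 0.41 in microglia. Thinning gave −0.76, −2.70 and 0.27 in ECs, and 0.059, −2.26 and 0.52 in microglia. The 3 nuclear members higher in Tspan12 KO ECs became 5 without doublet removal, 5 with the gate, 7 within 1 cluster, 16 at 4000 to 8000 UMIs, 1 with at least 200 UMIs and 0 at a fold of 2. The 3 lower became 5 at 4000 to 8000 UMIs and 1 at a fold of 2. In Ctnnb1 cKO ECs 22 higher and 15 lower became 10 and 2 at a fold of 2. The within-cluster, 4000 to 8000 UMI and no-bipolar alternatives were chosen after seeing the data.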
